A study of Mus musculus with 19 samples.

Results

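Haemoglobin and red cell genes were followed in mouse heart over the first weeks after birth as 7 genes of the 56066 in the table, chosen by name. They were the alpha globin genes Hba-a1 and Hba-a2, the beta globin genes Hbb-bs and Hbb-bt, the erythroid haem synthesis gene Alas2, the red cell anion exchanger gene Slc4a1 and the transferrin receptor gene Tfrc. All 7 were measured, and all 7 reached 1 TPM in at least 3 libraries, the filter for testing. TPM, a unit of transcript abundance, divides reads by transcript length and scales each library to the same total, so levels of different genes can be compared within a library. Hearts were sampled in 5 groups: wild type (WT) at postnatal day 1 (P1, 3 libraries), at P7 (5) and at P21 (4), and hearts labelled PDK1 CKO (cKO below) at P7 (3) and at P21 (3). The series' design text gives P0 where the sample labels give P1. No treatment was labelled. The titles of 2 of the 4 P21 WT libraries (2 and 3) carry the tag B6, which no other title has and the labels do not explain. The labels give no sex, promoter behind the deletion or rinsing of blood, and no strain for the other libraries, nor do they say that each library was a separate animal, so p-values measure the spread between libraries.

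Red cells carry oxygen on haemoglobin, a tetramer of alpha and beta globin chains that each hold a haem. ALAS2 catalyses the rate-limiting step of haem synthesis in erythroid cells, while ALAS1 does so elsewhere. Iron for haem enters cells as transferrin bound to the transferrin receptor, whose messenger RNA is stabilized when cell iron is low. SLC4A1, also called band 3, exchanges chloride for bicarbonate and anchors the red cell skeleton. Mature red cells of mammals have lost their nucleus, and the youngest of them, reticulocytes, still hold globin messenger RNA. The transferrin receptor is not confined to the red lineage, since cardiomyocytes also take up iron through it. In RNA from a whole tissue, a change in the number of cells of a type and a change in RNA per cell cannot be told apart.

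The paired globin genes are near-identical copies in their coding sequences. These are shown first, because they bear on how far each copy could be measured on its own. On mm10, Hba-a1 (chromosome 11, 32283511 to 32284465) lies 12.02 kb from Hba-a2 (32296489 to 32297298), and Hbb-bt (chromosome 7, 103812524 to 103813996) lies 12.54 kb from Hbb-bs (103826534 to 103828096). The coding sequences of Hba-a1 and Hba-a2 in GENCODE M21, 429 bases each, differed at 1 base, C381T, counted from 1 at the start codon with the Hba-a1 base given before the Hba-a2 base. Those of Hbb-bs and Hbb-bt, 444 bases each, also differed at 1 base, C417T, with the Hbb-bs base before the Hbb-bt base. The coding bases around each difference are printed 5′ to 3′ with the differing base in capitals.
Hba-a1, coding bases 351 to 411: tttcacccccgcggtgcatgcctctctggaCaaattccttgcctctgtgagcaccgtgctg
Hba-a2, coding bases 351 to 411: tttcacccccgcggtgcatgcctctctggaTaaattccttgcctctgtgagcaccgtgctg
Hbb-bs, coding bases 387 to 444: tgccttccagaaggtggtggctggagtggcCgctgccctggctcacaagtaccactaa
Hbb-bt, coding bases 387 to 444: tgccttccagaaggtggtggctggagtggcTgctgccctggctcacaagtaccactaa
Of all stretches of 50 coding bases, 87.1% of those in Hba-a1 also occurred in Hba-a2 and 92.9% of those in Hbb-bs also occurred in Hbb-bt. A read of that length from a shared stretch cannot be placed in 1 copy, so the split of TPM within each pair is uncertain. The sum of a pair depends less on that split, though TPM divides by transcript length and the copies can differ in length. Untranslated parts of the copies were not compared, and how shared reads were placed is not given in the sources used here.

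The stretches upstream of the RefSeq starts of the genes that moved together, the 4 globin genes and Alas2, are printed next. The GENCODE spans of these genes begin further upstream. The windows of Hba-a1 and Hbb-bs thus lie inside those spans, and the windows of Hba-a2, Hbb-bt and Alas2 overlap them in part. Among the RefSeq starts available here, 6 of the 7 genes had an entry, all but Slc4a1. The 100 bases before the RefSeq start (GRCm38.p6, the assembly of mm10) are printed 5′ to 3′ in the direction of transcription, and capitals mark every match of 5 motifs on either strand. Searched as the TATA box was TATAAA. The second motif was CCAAT. The CACCC box was searched as CCACCC. The shorter letters CACCC, which the Hbb-bs and Hbb-bt windows hold after an A, were not searched and stand there in lower case. Sites known to bind GATA factors were searched as AGATAA and, as the other form, TGATAA.
Hba-a1, chr11:32283572-32283671, plus strand: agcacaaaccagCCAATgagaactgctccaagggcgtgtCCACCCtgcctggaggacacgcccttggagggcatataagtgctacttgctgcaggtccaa
Hba-a2, chr11:32296392-32296491, plus strand: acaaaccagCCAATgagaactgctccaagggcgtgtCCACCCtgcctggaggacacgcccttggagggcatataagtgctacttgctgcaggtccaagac
Hbb-bs, chr7:103827929-103828028, minus strand: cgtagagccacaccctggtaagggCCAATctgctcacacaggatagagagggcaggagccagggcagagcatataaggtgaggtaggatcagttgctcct
Hbb-bt, chr7:103813924-103814023, minus strand: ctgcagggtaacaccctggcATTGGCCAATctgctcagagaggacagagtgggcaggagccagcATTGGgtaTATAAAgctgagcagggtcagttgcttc
Alas2, chrX:150547317-150547416, plus strand: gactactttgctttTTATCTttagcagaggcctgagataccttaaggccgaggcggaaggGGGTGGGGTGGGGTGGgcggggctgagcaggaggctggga
CCAAT matched in all 4 globin windows, against 18.9% of 32851 windows of the same length over all RefSeq starts available here. CCACCC matched in both alpha globin windows and, on the opposite strand, in 3 overlapping copies in Alas2, against 14% of all windows. A GATA motif matched in Alas2 alone of the 5, against 6.17% of all windows, and TATAAA in Hbb-bt alone, against 5.56%. The alpha windows were identical over their 97 shared bases, with starts set 3 bases apart, and the beta windows matched at 73.7% of 99 bases. A match describes letters only, and no match says only that these letters are not in this window. The window of Tfrc (chromosome 16, 32608920 to 32632794) matched none of the 5 motifs.

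Cardiomyocyte markers were abundant in every library: all 10 reached 1 TPM, with a summed level of 61487 to 73424 TPM. PDK1 can name the product of Pdpk1 or of Pdk1, and the labels do not say which was deleted. Pdpk1 stood at 4.95 to 5.55 TPM in P21 cKO and at 6.17 to 7.65 TPM in P21 WT, but at 7.95 to 8.09 and 7.96 to 11.9 TPM at P7, where the groups overlapped. Pdk1 was at 31.6 to 37.7 TPM in P21 cKO and 24.3 to 29.4 TPM in P21 WT. Values cover whole genes, so a deleted exon cannot be seen. Another P21 library, numbered 63, carries a PDK1 CKO label under a title without the KO of the other cKO titles, and it was left out of every group. Library 63 had 6.23 TPM of Pdpk1 and 26.9 TPM of Pdk1, both within the P21 WT ranges and outside those of P21 cKO. WT titles either carry a tag in letters, which differs by age (H in all P1, heart in 2 at P7 and B6 in 2 at P21), or are plain numbers (3 at P7 and 2 at P21), and cKO titles are numbers with KO. Letters or plain number was a term of the model. Since the tag changes with age, libraries with letters are not shown to be a single batch, and tag and age cannot be told apart among them. Across all 14812 genes tested, the median log2 change was -0.47 between P21 WT and P7 WT and 0.22 between P21 cKO and P21 WT, -0.00 between P7 WT and P1 WT, and -0.02 between P7 cKO and P7 WT. After median-ratio scaling these medians were between 0.00 and 0.02.

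Adult globin messenger RNA was among the most abundant in the heart. Over the 18 libraries in groups, Hbb-bs (3875 TPM on average) ranked number 26 of 56066 genes and Hba-a2 (3847 TPM) number 27. Hba-a1 (1432 TPM) ranked 64 and Hbb-bt (534 TPM) 211. Summed, the 4 genes held 0.623% ± 0.227 of all TPM in P1 WT (SD, n = 3), 0.803% ± 0.149 in P7 WT (n = 5), 0.820% ± 0.119 in P7 cKO (n = 3), 1.17% ± 0.421 in P21 WT (n = 4) and 1.47% ± 0.541 in P21 cKO (n = 3). The order of the means followed age, but neighbouring groups in that order overlapped.

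**Figure D1:**
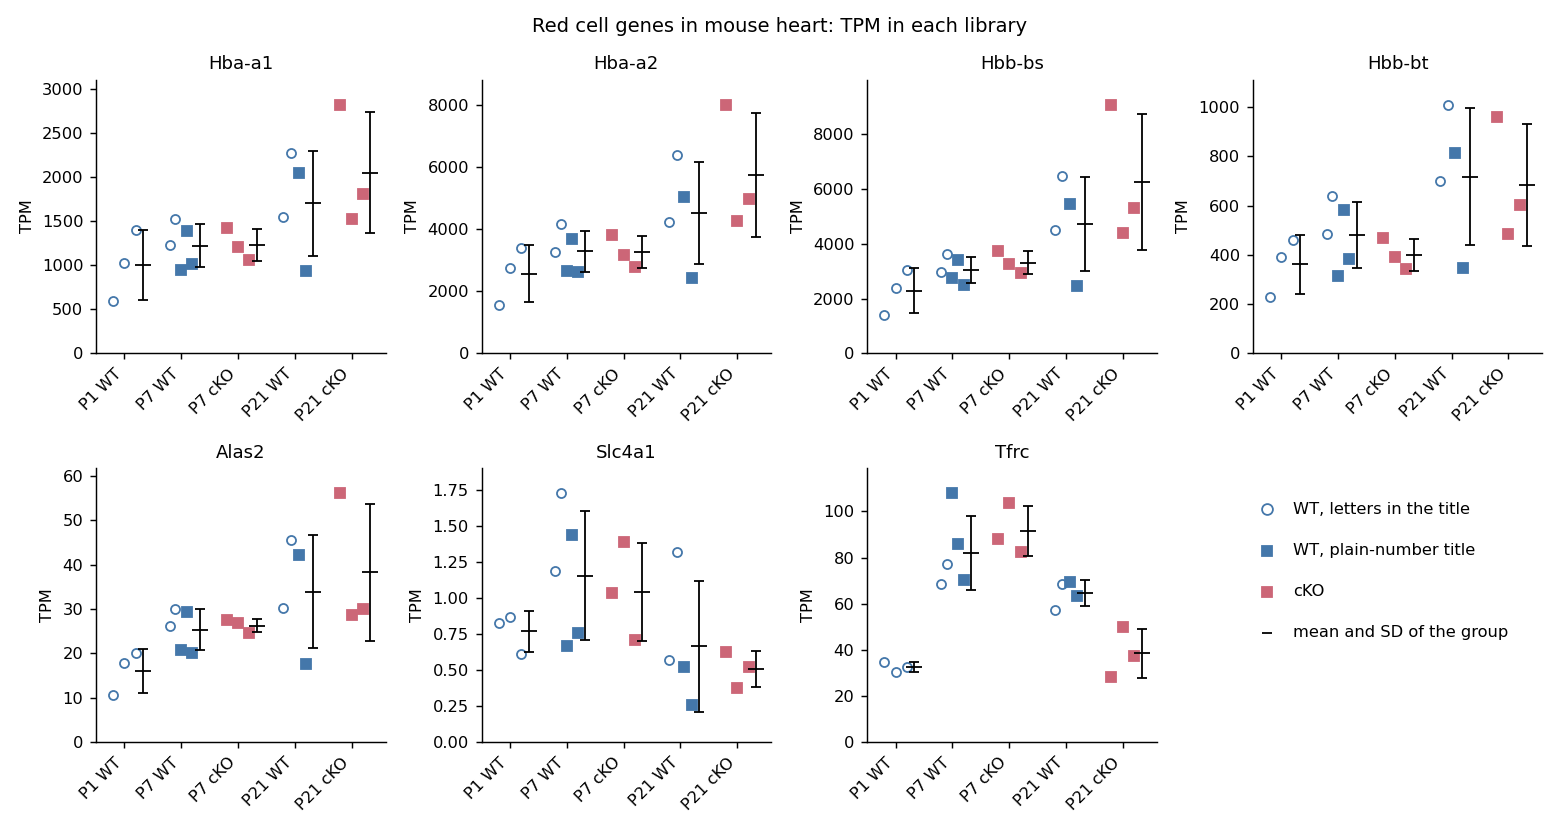
TPM (vertical axes, linear from 0) of the 7 genes in each of 18 libraries, by group; open circles are WT libraries with letters in the title, filled squares have plain numbers, red is cKO, and bars give the mean and SD. The 4 globin genes and Alas2 spread widely within P21 groups, Slc4a1 stays under 2 TPM, and Tfrc is tightly grouped at P1 and lower in all 3 P21 cKO libraries than in P21 WT.

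Globin varied widely between libraries of the same group. Summed globin was 3808, 6570.3 and 8301 TPM in the P1 WT libraries. In P7 WT it was 7962, 9959.9, 6661, 9064 and 6526 TPM. In P21 WT it was 10987, 16139, 13367 and 6207 TPM. Thus the highest P21 WT library held 2.60 times the lowest, which lay below all 5 P7 WT libraries, and the highest P1 library lay above 3 of the 5 P7 WT libraries. In cKO hearts the sum was 9464, 8029 and 7109 TPM at P7 and 20877, 10674 and 12670 TPM at P21, the first P21 value, of library 55, being the highest of all 18.

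From P1 to P21 in WT, all 4 adult globin genes rose, as did Alas2 and Tfrc, so 6 of the 7 genes were called higher, where 11.0% of all genes tested were. Tests used limma with Benjamini-Hochberg adjustment over 14812 genes, an adjusted p under 0.05 passed, and changes are on the log2(TPM + 1) scale, where changes of low genes come out too small. Hba-a1 rose by 0.95 ± 0.33 (SE; adjusted p = 0.0169) and Hba-a2 by 1.02 ± 0.32 (0.0099). Hbb-bs rose by 1.21 ± 0.33 (0.00382) and Hbb-bt by 1.21 ± 0.34 (0.00548). The median of the 4 was 1.12, against -0.48 for all genes tested. The 4 globin genes and Alas2 ran together over the libraries, so their calls are not independent of each other. Summed globin was 1.86 times as high in P21 WT as in P1 WT by geometric means, which did not pass. Its exact two-sided permutation p was 0.171 (adjusted 0.279 over 25 tests), where 0.0571 was the smallest possible. Per library, Hbb-bs was at 1409, 2408 and 3052 TPM at P1 and at 4512, 6476, 5457 and 2479 TPM at P21, so 3 of 4 P21 libraries lay above all P1 libraries and library 60 did not. Hba-a2 was at 1573, 2745 and 3392 TPM at P1 and at 4228, 6384, 5046 and 2442 TPM at P21, with the same library low. Without P1 library 1, Hba-a1 changed by 0.62 (adjusted p = 0.102) and Hba-a2 by 0.70 (0.0621), and without P21 library 3 by 0.78 (0.0829) and 0.81 (0.0607), while the beta genes passed whichever library was left out. Among libraries with letters in the title alone, the 4 globin changes were 0.98 for Hba-a1, 1.09 for Hba-a2, 1.31 for Hbb-bs and 1.27 for Hbb-bt, with adjusted p of 0.0121 to 0.0477.

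Neither step of that interval was called for a globin gene. Between P1 and P7 WT, 1 of the 7 genes was called higher (Tfrc), against 13.8% of all genes. The globin changes were 0.56 ± 0.33 for Hba-a1, 0.66 ± 0.32 for Hba-a2, 0.69 ± 0.33 for Hbb-bs and 0.74 ± 0.34 for Hbb-bt, with adjusted p between 0.121 and 0.215. From P7 to P21 WT, 1 of the 7 was called lower (Slc4a1, which entered the tests through its P7 libraries), against 64.4% of all genes, and none higher. There the globin changes ran from 0.36 ± 0.26 for Hba-a2 to 0.53 ± 0.26 for Hbb-bs (adjusted p 0.0834 to 0.222). Relative to the median gene, which fell by 0.47, those values were 0.83 and 0.998. With median-ratio scaling the 4 globin genes and Alas2 passed as higher from P7 to P21, as did 28.0% of all genes, at 0.94 for Hba-a2 and 1.11 for Hbb-bs (adjusted p = 0.0135 and 0.00589). They also passed without P21 WT library 60, where Hba-a2 changed by 0.61 and Hbb-bs by 0.81.

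**Figure D2:**
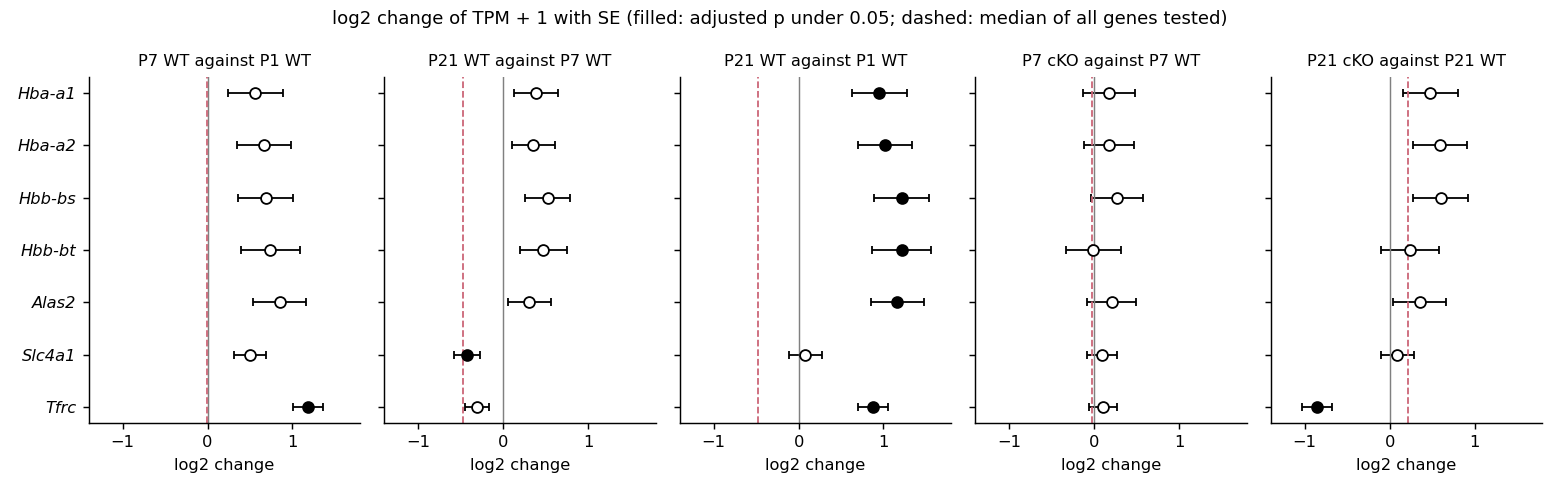
Change of each gene, as a difference of log2(TPM + 1) with its SE (horizontal axes), in 5 comparisons; filled points have a limma adjusted p under 0.05, and the dashed line is the median of 14812 genes. Globin and Alas2 points lie right of the dashed line in all 5 panels, filled in P21 WT against P1 WT, and Tfrc at P21 cKO is the filled point left of it.

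Globin levels were not called different between genotypes. At P7, 0 of the 7 genes passed, against 0.0203% of all genes (3 genes), and none of the 7 had an unadjusted p under 0.05. Hba-a2 was at 3809, 3180.3 and 2784 TPM in P7 cKO, inside the 2637 to 4180.04 TPM of P7 WT. Hbb-bs was at 3758, 3249 and 2923 TPM in P7 cKO and at 2493 to 3614 TPM in WT. At P21, Hba-a2 was at 8012, 4255 and 4959 TPM in cKO, a log2 change of 0.59 ± 0.32 (adjusted p = 0.184). Hbb-bs was at 9084, 4410.2 and 5301 TPM, a change of 0.60 ± 0.33 (0.188). Library 55 gave the high value in both, and without it the change was 0.32 for Hba-a2 (adjusted p = 0.487) and 0.30 for Hbb-bs (0.522). Hba-a1 and Hbb-bt differed by 0.48 ± 0.33 (0.286) and 0.24 ± 0.34 (0.632). No globin gene passed the test of whether its genotype effect differed between P21 and P7, with differences of 0.25 to 0.42 (adjusted p 0.492 to 0.721) beside a median of 0.24 over all genes.

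Embryonic and minor globin genes were near 0. Of 8 such genes, 4 (Hbb-bh0, Hbb-bh1, Hbb-bh2 and Hbb-bh3) were listed at 0 in all libraries and 0 entered the tests. Hbb-y, an embryonic beta-like globin, was at 0.25 to 0.39 TPM in P1 WT, at 0 to 0.14 TPM in P7 WT and at 0 in both P21 groups and in P7 cKO. The sum of the 8 was 0.14 to 1.47 TPM over all groups.

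Within the pairs, the copies kept different ratios. Hba-a2 exceeded Hba-a1 in all 18 libraries, by 2.43 to 2.84 times, with group means between 2.58 and 2.79. The ratio of Hbb-bs to Hbb-bt was 5.66 to 7.13 in 11 of the 12 WT libraries and 8.78 in the other one, P7 WT library 72. In cKO libraries it was 7.99, 8.33 and 8.53 at P7 and 9.46, 9.07 and 8.81 at P21. The groups did not overlap at P21, where the WT values were 6.45, 6.41, 6.72 and 7.13, and at P7 all cKO values lay between those of library 72 and the other 4 WT libraries. The ratio was 1.37 times higher in P21 cKO than in P21 WT by geometric means (exact two-sided permutation p = 0.0571, the smallest that 3 against 4 allows) and 1.27 times higher at P7 (p = 0.143). Over 25 tests of 5 measures, both stood at a Benjamini-Hochberg adjusted p above 0.05 (0.223 and 0.279), so neither passed. Library 63 had a ratio of 6.80. Hbb-bt itself was at 960.1, 486 and 602 TPM in P21 cKO and at 699, 1010.4, 812 and 348 TPM in P21 WT. Mean Hbb-bt was thus 683 TPM in cKO and 717 TPM in WT at P21, while mean Hbb-bs was 6265 TPM in cKO and 4731 TPM in WT. Reads shared by the copies bear on this ratio, and their part in it was not tested.

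The balance of alpha to beta globin was lower at P21 than at P1 in every WT library, but no difference passed after adjustment. Summed alpha over summed beta TPM was 1.32, 1.35 and 1.36 in P1 WT, 1.17 to 1.34 in P7 WT and 1.11 to 1.20 in P21 WT. P1 and P21 did not overlap, and library 72 was the P7 WT library that reached into the P21 range. The ratio in P21 WT was 0.902 times that in P7 WT (exact permutation p = 0.0317, adjusted 0.223) and 0.854 times that in P1 WT (p = 0.0571, the smallest possible, adjusted 0.223). It was 1.18 to 1.24 in P7 cKO and 1.08 to 1.18 in P21 cKO, overlapping WT of the same age.

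**Figure D3:**
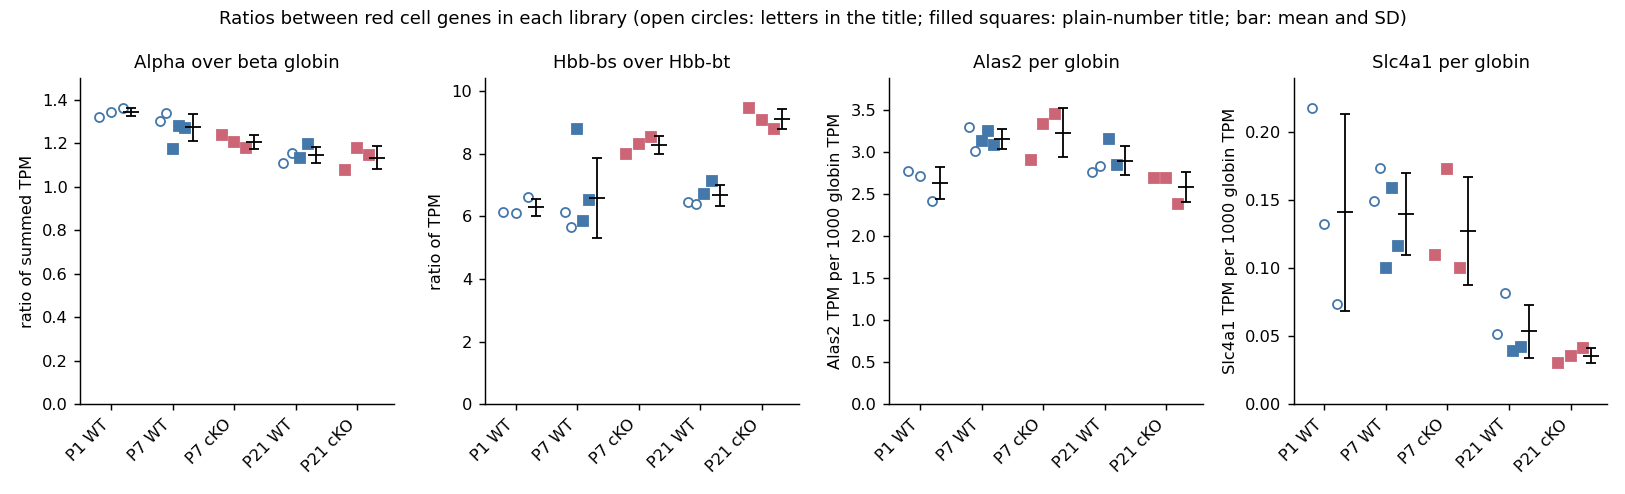
Ratios of TPM (vertical axes, linear from 0) in each of 18 libraries by group: summed alpha over beta globin, Hbb-bs over Hbb-bt, and Alas2 and Slc4a1 per 1000 TPM of globin; bars give the mean and SD. The Hbb-bs over Hbb-bt ratio is 8.81 to 9.46 in P21 cKO and 6.41 to 7.13 in P21 WT, with P7 WT library 72 at 8.78 apart from its group, and Slc4a1 per globin is lower at P21 than at P7.

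Alas2 (chromosome X, 150547375 to 150570638) followed globin closely. It was at 10.55, 17.8 and 20.02 TPM in P1 WT, at 26.25, 29.99, 20.8, 29.4 and 20.1 TPM in P7 WT and at 30.3, 45.6, 42.1 and 17.7 TPM in P21 WT. Library 60 was again the lowest at P21 and library 1 the lowest at P1. Alas2 rose by 1.16 ± 0.31 from P1 to P21 (adjusted p = 0.00382), and its changes of 0.85 ± 0.31 from P1 to P7 (0.0528) and 0.31 ± 0.25 from P7 to P21 (0.282) did not pass. In cKO it was at 27.5, 26.8 and 24.55 TPM at P7 and at 56.05, 28.65 and 30.1 TPM at P21, with genotype changes of 0.21 ± 0.29 (adjusted p = 1) and 0.36 ± 0.31 (0.413). Per 1000 TPM of globin, Alas2 stayed within 2.37 to 3.45 over 18 libraries in which globin itself varied 5.48-fold. That quotient was 2.63 ± 0.192 in P1 WT (SD, n = 3) and 3.15 ± 0.117 in P7 WT (n = 5), groups that did not overlap (exact permutation p = 0.0357, the smallest possible, adjusted 0.223). It was 2.90 ± 0.175 in P21 WT (n = 4) and 2.58 ± 0.179 in P21 cKO (n = 3), again without overlap (exact permutation p = 0.0571, the smallest possible, adjusted 0.223).

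Slc4a1 (chromosome 11, 102348824 to 102366203) was the lowest of the 7, ranked 14080 with a mean of 0.858 TPM. It reached 1 TPM in 6 libraries, 5 of them at P7, so it passed the filter only through P7, the group where it was highest, and its call against P7 gives no independent support for a fall. Its TPM was 0.83, 0.87 and 0.61 in P1 WT, 1.19, 1.73, 0.67, 1.44 and 0.76 in P7 WT and 0.57, 1.32, 0.52 and 0.26 in P21 WT. In cKO it was 1.04, 1.39 and 0.71 at P7 and 0.63, 0.38 and 0.52 at P21. WT groups of successive ages overlapped, while all P7 cKO values lay above all P21 cKO values. From P7 to P21 WT the change was -0.42 ± 0.16 on the log2(TPM + 1) scale (adjusted p = 0.0226), which understates it at this level. With a pseudocount of 0.1 it was -0.89 (0.0174), and in a fit with no filter -0.42 (0.0389). It passed in 20 of 30 alternatives, and with median-ratio scaling the change was -0.16 (adjusted p = 0.414). It missed the threshold within either title style, at -0.48 among plain-number titles (0.072) and -0.36 among titles with letters (0.207). Per 1000 TPM of globin, Slc4a1 was 0.101 to 0.174 in P7 WT and 0.0389 to 0.0818 in P21 WT, without overlap and 0.374 times as high by geometric means (exact permutation p = 0.0159, the smallest possible, adjusted 0.223). Changes with genotype were 0.09 ± 0.18 at P7 and 0.09 ± 0.19 at P21 (adjusted p = 1 and 0.757).

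Other genes of the red lineage were read from lists chosen for this tissue. Of 20 erythroid regulators and maturation genes matched, 12 reached 1 TPM in at least 1 library and 8 did not. Among the lowest were Gata1 and Klf1, transcription factors of red cell precursors, whose mean TPM did not exceed 0.083 and 0.2 in any group, and Hemgn, at no more than 0.043. Tal1, Lmo2, Zfpm1, Bcl11a and Epor, factors and a receptor that also work in the red lineage, were among those that reached 1 TPM. Of 19 red cell membrane and skeleton genes, 6 were under 1 TPM in every library, and 12 were tested, Slc4a1 among them. Ank1 (ankyrin 1), Tmod1 (tropomodulin 1) and Aqp1 (aquaporin 1), which the heart's own cells also express, were the most abundant, at 243, 159 and 117 TPM on average. From P1 to P21 WT, 3 of the 12 rose and 5 fell, where 11.0% and 57.1% of all genes did, with a median of 0.08 against -0.48 for all genes. Ank1 rose by 1.57 and Aqp1 by 1.44 (adjusted p = 6.49e-07 and 8.43e-06), while Add2 (beta adducin) fell by 0.70 and Rhd by 1.15 (0.000277 and 0.000361). With median-ratio scaling 8 of the 12 rose and 2 fell, where 29.0% and 28.3% of all genes did, with Add2 at -0.61 and Rhd at -0.83. Mean Ank1 and Aqp1 were 102 and 60.5 TPM at P1 and 311 and 167 TPM at P21. Of 11 erythroid regulators and maturation genes tested, 1 rose and 8 fell over the same interval, with a median of -0.57, not far from -0.48 and the 57.1% lower of all genes. Among them Bcl11a, a repressor of embryonic globin, fell by 1.95 and Zfpm1, the GATA1 partner, by 1.01 (1.73e-07 and 1.39e-06), and by 1.56 and 0.48 with median-ratio scaling, where 2 of the 11 rose and 2 fell.

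**Figure D4:**
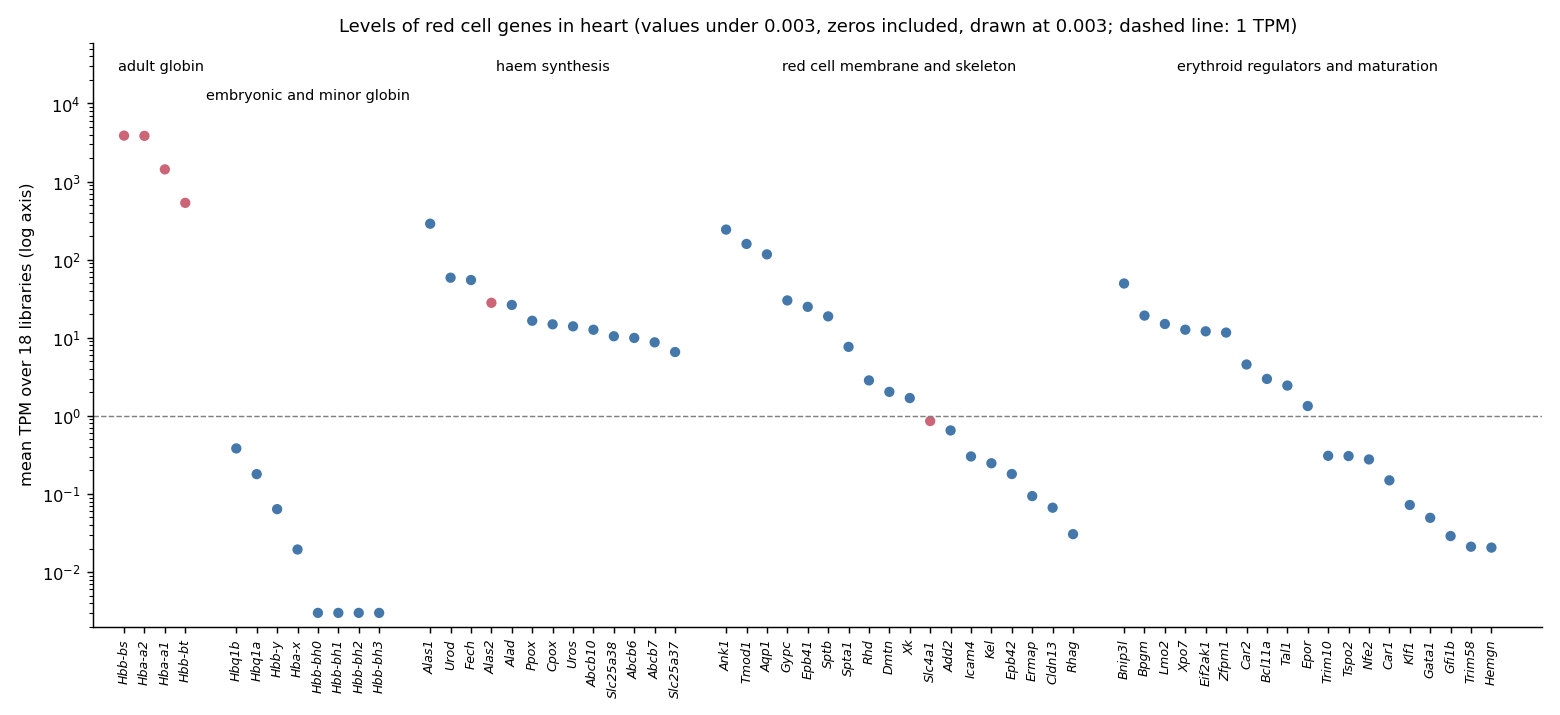
Mean TPM over 18 libraries (vertical log axis) of genes of 5 lists, with list members on the horizontal axis, members of the set described here in red, and values under 0.003 drawn at 0.003. Adult globin genes stand at 534 to 3875 TPM, Alas2 at 28.0 TPM and Slc4a1 at 0.858 TPM, while Gata1, Klf1, Hemgn and Rhag lie far below the dashed line at 1 TPM.

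Haem synthesis genes split evenly with age on the TPM scale. Of 14 tested, Alas2 among them, 4 rose and 4 fell from P1 to P21 WT, where 11.0% and 57.1% of all genes did. Their median was 0.04 against -0.48 for all genes. With median-ratio scaling 10 of the 14 rose and 0 fell, where 29.0% and 28.3% of all genes did. Alas1, the enzyme's housekeeping form, stood at 226 ± 7.92 TPM in P1 WT (SD, n = 3), 323 ± 31.5 in P7 WT (n = 5) and 286 ± 6.63 in P21 WT (n = 4), and rose by 0.31 from P1 to P21 (adjusted p = 0.00326). Over the 18 libraries it averaged 288 TPM, against 28.0 TPM for Alas2. Urod, a later enzyme of the pathway, fell by 0.52 in TPM (0.000176), but changed by 0.05 with median-ratio scaling (0.662). In P21 cKO 1 of 14 rose, where 19.5% of all genes did. It was Cpox, an enzyme of a late mitochondrial step, up by 0.55 (0.0126), from 13.6 ± 2.04 TPM in WT (n = 4) to 20.1 ± 2.86 TPM (n = 3). In P7 cKO 0 of 14 passed, where 0.0203% of all genes did. With median-ratio scaling Cpox changed by 0.31 in P21 cKO (0.0916), while Alas1 fell by 0.47 (0.0125), one of 2 of the 14 then called lower, where 5.39% of all genes were.

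Tfrc, the receptor that brings transferrin iron into cells, rose after P1 and was lower in cKO at P21. In P1 WT it was at 34.7, 30.45 and 32.5 TPM. In P7 WT it was at 68.6, 77.3, 107.85, 85.8 and 70.3 TPM. In P21 WT it was at 57.3, 68.6, 69.4 and 63.4 TPM. All P7 and P21 WT libraries lay above all P1 libraries, and the P7 and P21 ranges overlapped. Tfrc rose by 1.19 ± 0.18 from P1 to P7 (adjusted p = 0.00021) and by 0.88 ± 0.18 from P1 to P21 (0.000382), in all 30 alternatives. Within titles with letters the changes were 1.14 and 0.93 (0.00654 and 0.000524). From P7 to P21 WT it changed by -0.31 ± 0.14 (0.0665), and by 0.27 with median-ratio scaling (0.157), so no direction can be given for that step.

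The P21 cKO libraries had 28.3, 49.8 and 37.3 TPM, all below the lowest P21 WT library. The log2 change was -0.85 ± 0.18 (adjusted p = 0.00495), or -1.07 relative to the median gene, and Tfrc was the 1 member of 7 called lower, against 1.77% of all genes. Among plain-number titles it was -0.81 (0.0482), and leaving out any library gave -1.05 to -0.66, each passing. At P7, cKO libraries were at 88.2, 103.8 and 82.5 TPM, within the WT range, with a change of 0.10 ± 0.17 (adjusted p = 1). The difference between the P21 and P7 genotype effects was -0.95 ± 0.22 (0.0213), and Tfrc was again the 1 member of 7 called lower, against 0.520% of all genes. That difference did not pass among plain-number titles alone (-0.88, 0.187), with no filter on low values (-0.95, 0.0521) or without P7 cKO library 69 (-0.98, 0.0531). Library 63, in no group, had 78.01 TPM, above all P21 WT libraries. With library 63 counted as cKO the P21 change was -0.59 (0.116). The change passed in 29 of 30 alternatives, all but that one. The P4ha3 and Pold3 levels of library 63, given under other observations, were far under those of P21 cKO.

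Other iron genes at P21 moved in both directions. Of 19 tested, Tfrc among them, 3 were higher and 2 lower in cKO, where 19.5% and 1.77% of all genes were, with a median of 0.04 against 0.22 for all genes. Cp (ceruloplasmin, a ferroxidase) rose by 0.92 ± 0.12 (adjusted p = 0.000219), from 18.6 ± 3.07 TPM in WT (n = 4) to 33.4 ± 0.868 TPM in cKO (n = 3). Ftl1, the ferritin light chain, rose by 0.36 ± 0.08 (0.00826), and Heph (hephaestin, also a ferroxidase) by 0.46 ± 0.15 (0.0456). Hjv (hemojuvelin, a BMP co-receptor of iron sensing) fell by 0.74 ± 0.20 (0.0213), from 101.7 ± 4.06 to 62.9 ± 6.71 TPM. With median-ratio scaling Cp stayed higher, at 0.68 (0.000464), and Hjv lower, at -0.99 (0.0173), while Ftl1 at 0.11 (0.572) and Heph at 0.34 (0.103) no longer passed. The ferritin heavy chain gene Fth1 stood at 1857 TPM in WT and 1939 TPM in cKO, and Slc40a1, the iron exporter, at 5.78 and 5.20 TPM. In P7 cKO 0 of the 19 passed, where 0.0203% of all genes did. In WT from P1 to P21, 8 of 19 rose and 7 fell, where 11.0% and 57.1% of all genes did. With median-ratio scaling 12 rose and 3 fell, where 29.0% and 28.3% of all genes did. On the TPM scale Cp was up by 1.61 and Hjv by 2.09, while Ftl1 went down from 757 to 283 TPM and Heph from 6.11 to 0.965 TPM.

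**Figure D5:**
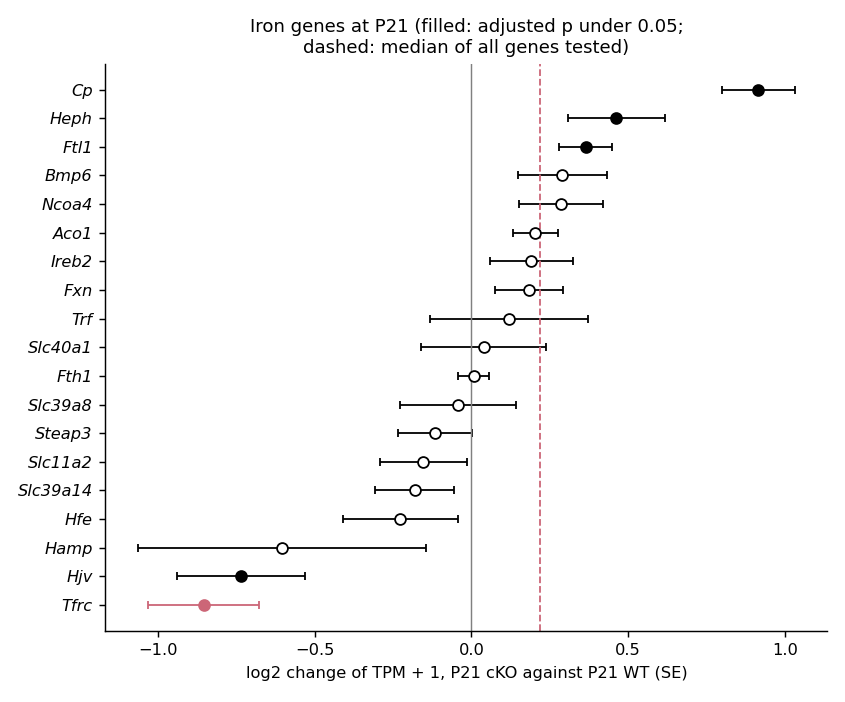
Change of 19 iron genes between P21 cKO and P21 WT, as a difference of log2(TPM + 1) with its SE (horizontal axis); filled points have a limma adjusted p under 0.05, and the dashed line is the median of all genes tested. Tfrc at -0.85 and Hjv at -0.74 lie left of 0, and Cp at 0.92, Heph at 0.46 and Ftl1 at 0.36 lie right of it.

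Genes of other blood and heart cells were set beside these changes. In P21 cKO 8 of 9 endothelial markers rose, where 19.5% of all genes did, with a summed level of 561 to 609 TPM in cKO and 351 to 475 TPM in WT. Lymphocyte markers Igkc and Cd79b rose by 1.25 and 0.63 (adjusted p = 0.0273 and 0.0396), 2 of 4 tested, with a summed level of 13.5 to 33.5 TPM in cKO and 7.70 to 13.8 TPM in WT. With median-ratio scaling 1 of 9 endothelial markers and 0 of the lymphocyte markers passed as higher, where 4.28% of all genes did. Of 5 platelet and 5 neutrophil markers tested, 0 passed at P21. All 10 dividing-cell markers fell from P1 to P21 in WT, where 57.1% of all genes did. Their sum went from 550 to 617 TPM to 9.59 to 14.2 TPM, and it was 7.61 to 20.0 TPM in P21 cKO. Macrophage markers, of cells that clear old red cells, summed to 73.7 to 75.7 TPM at P1 and 155 to 237 TPM at P21 in WT. The part of these cells in the Tfrc and globin values was not tested.

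Genes whose levels ran most like globin over the 18 libraries were ranked by Pearson correlation of log2 values among the 12029 genes whose mean level reached 1 TPM. These correlations are descriptions, since libraries share groups and TPM sum to a fixed total. Alas2 stood at r = 0.964 with summed globin, Slc4a1 at 0.013 and Tfrc at -0.11. Genes outside the set with high values were Ptger1 (0.863), Bpgm (bisphosphoglycerate mutase, which sets haemoglobin's oxygen affinity and is on the list of erythroid regulators and maturation genes, 0.819), Trip10 (0.807), Lims2 (0.804) and Dok3 (0.801). With group means removed, Tent5c stood at 0.923, Bpgm at 0.865, Cdc42ep4 at 0.827, Ptger1 at 0.791 and Kri1 at 0.774, while Alas2 stood at 0.977, Slc4a1 at 0.606 and Tfrc at -0.29. The genes most like Tfrc were Alas1 (0.925), Cpt2 (0.897), Smtn (0.873) and Acadvl (0.867), of which Cpt2 and Acadvl encode enzymes of fatty acid oxidation in mitochondria. Alas2 itself stood at 0.099 with Tfrc.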

How the data were processed

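Expression values were taken from the deposited table of TPM per gene and library; no count of reads was used, so depth is unknown and the number of libraries limits precision. Hearts were extracted with RNA iso Plus and libraries made with the SMARTER mRNA-Seq kit, per the labels' protocols. TopHat2 2.0.14, Cufflinks 2.2.1 and mm10 are named per the submitters' processing notes; the step that gave TPM and the annotation are not given in the sources used here. Of the table's columns, 19 matched samples, 2 matched none and were not used, and library 63 was left out of all groups.

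Genes reaching 1 TPM in 3 or more of 18 libraries were tested in R 4.3.3 with limma 3.58.1 (eBayes with a trend) on log2(TPM + 1), with group and title style as terms and Benjamini-Hochberg adjustment over 14812 genes. The fit was tested on simulated data. Ratios were compared by exact two-sided permutation of log2 values (scipy 1.17.1). Named genes were all members, up to 4 genes per list and comparison with the smallest p among those that passed (up to 2 where none did), and up to 6 genes per ranking with the highest correlation; other genes named were chosen after their values were seen. The members and lists were chosen with earlier results of these data known. Alternatives covered scaling, pseudocount, filter, model, title style, library 63 and each library left out. Coding sequences came from GENCODE M21, upstream windows from RefSeq. Values of some genes of the lists are not reported here.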

Additional observations from a re-analysis of the deposited data

Results flagged for a closer look

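The ratio of Hbb-bs to Hbb-bt in P7 WT library 72 was 8.78, far from the other 4 libraries of its group (5.66, 5.84, 6.14 and 6.52) and within the range of the 6 cKO libraries (7.99 to 9.46). It was the only library set apart in this way among 24 sets of values. These were the values of the 7 genes and 5 measures in P7 WT and in P21 WT. Groups of 3 libraries, both cKO groups among them, were not examined. Chance flags about 1 in 20 such sets, and these sets are not independent of each other. Library 72 also had the highest Tfrc of the 18 libraries (107.85 TPM) and the lowest alpha over beta ratio of P7 WT (1.17). Its summed globin, 6661 TPM, lay within its group.

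The difference of the Tfrc genotype effect between P21 and P7, -0.95 on the log2 scale by limma's interaction term, was listed because that difference passed the test itself (adjusted p = 0.0213). Tfrc was lower in all 3 P21 cKO libraries than in all 4 P21 WT libraries, while the groups overlapped at P7.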

How the results depend on the processing

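In limma fits under 31 alternative settings, no called change of a member reversed. Of the values, 1211 kept their side of the threshold, 31 passed newly and 19 no longer did. The 1211 include changes of sign where neither fit passed, such as Tfrc from P7 to P21 WT, at 0.27 with median-ratio scaling. The counts of members called moved as follows, and except where stated the cause was not tested. For P7 WT against P1 WT, 1 member was called, against 2 with quantile normalization, with TPM over genes neither mitochondrial nor globin, with a filter of 5 TPM or with library 63 as P21 WT, 6 with array quality weights, and 1 to 2 with 1 library left out. For P21 WT against P7 WT, 1 was called, against 5 with median-ratio scaling, 2 with quantile normalization, TPM over genes neither mitochondrial nor globin or array quality weights, and 0 with a filter of 5 TPM (which leaves Slc4a1 untested), with group alone in the model, within either title style or with library 63 as P21 WT; leaving out 1 library gave 0 to 5, the 5 without P21 WT library 60. For P21 cKO against P21 WT, 1 was called, and 0 with library 63 as cKO. For the difference between genotype effects, 1 was called, and 0 with no filter, among plain-number titles alone or with library 63 as cKO; leaving out 1 library gave 0 to 1, the 0 without P7 cKO library 69. The 6 called for P21 WT against P1 WT and the 0 for P7 cKO stayed within 1.5 times or at 0.

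Libraries of different ages share some title numbers, and deviations of same-numbered libraries with letters correlated at -0.095 to 0.066. With only 2 such libraries at P7 and 2 at P21, deviations within an age mirror each other. These correlations therefore cannot decide whether the numbers pair libraries. With the number as a replicate block the counts of members called were 1, 1, 6, 0, 1 and 1, as without it; Tfrc changed by -0.86 (adjusted p = 0.00949) in P21 cKO. TPM carry no depth, so no counting interval can be given for low genes such as Slc4a1.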

Other observations

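Library 63, in no group, held 8117 TPM of summed globin, 21.95 TPM of Alas2, 0.96 TPM of Slc4a1 and 78.01 TPM of Tfrc. Its P4ha3 level was 0.05 TPM and its Pold3 level 5.29 TPM, both far under the P21 cKO ranges given next. Both genes were chosen after their values were seen. P4ha3, a collagen prolyl hydroxylase subunit gene on chromosome 7, lies 3.493 Mb from Hbb-bt on mm10. It was at 775.6 to 833 TPM in P7 cKO and 542 to 575 TPM in P21 cKO, against 2.14 to 3.44 TPM in P7 WT and 0.07 to 0.3 TPM in P21 WT. Pold3, a DNA polymerase delta subunit gene, was at 98.85 to 126 TPM and 110.2 to 149 TPM in cKO, against 9.15 to 15.3 TPM and 4.58 to 7.5 TPM in WT. P7 WT library 72, whose Hbb-bs to Hbb-bt ratio stood within the cKO range, had 2.14 TPM of P4ha3 and 9.15 TPM of Pold3, the lowest of its group for both. Whether these genes bear on the Hbb-bs to Hbb-bt ratio was not tested.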
